A study of Mus musculus with 24 samples.

Results

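Genes of cholangiocytes, the epithelial cells of the bile ducts, were followed in whole-liver RNA-Seq from mice on a high-fat diet. The 8 genes were Krt7, Krt19, Krt23, Epcam, Sox9, Cftr, Prom1 and Cd24a, chosen by symbol as markers of cholangiocytes and of the ductular reaction, among 56205 genes in the count table. Each symbol matched 1 Ensembl gene, and all 8 passed the filter on low counts, which 17913 genes passed. The samples were livers of C57BL/6J mice, 12 libraries from animals on the high fat diet named FFD and 12 from animals on the control diet, both for 20 weeks. The study's methods describe FFD as rich in palm oil, fructose and cholesterol, and give an age of 8 to 10 weeks at its start. All mice were of this inbred strain, with no genetic change listed in either group. The series used males and females, 6 mice per diet and sex, but no label gives the sex of a library.

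Bile ducts are tubes lined by a single layer of cholangiocytes, which move salt, bicarbonate and water into the bile. In chronic liver injury, small ductules multiply around the portal tracts, often in the company of collagen-producing cells and immune cells, and pathologists call this the ductular reaction. Its cells carry keratins of simple epithelia, the adhesion molecule EpCAM and the transcription factor SOX9, and hepatocytes near the portal tract can switch on part of the same set. Cholangiocytes are a small minority of the cells in a liver, so their transcripts are scarce in RNA from the whole organ. In such bulk samples, fewer cells of a type and less RNA per cell cannot be told apart, and the same holds for more cells and more RNA.

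Depth ranged from 14468418 to 22112552 counts per library. Levels are given as CPM, counts scaled to a common library total after TMM scaling, and 3 counts stood for 0.118 to 0.305 CPM depending on the library. Replicates 1 to 6 of either diet held 2664 to 6285 counts of Xist, the RNA that coats the inactive X chromosome, and replicates 7 to 12 held 0 to 3. This gave 6 libraries per diet on each side of 1000 counts, the same numbers as the 6 mice per diet and sex of the series. The division was read from the counts, and no label states it. One library stood apart from the other FFD libraries. In FFD replicate 9, 1.41% of the genes with a median of at least 10 counts in the other FFD libraries were at 5-fold or more of that median. In FFD replicate 3 this share was 0.550%, and in the other FFD libraries it was 0.115% to 0.193%. Values are therefore given with and without FFD replicate 9. The labels tie no library to an animal, so p-values measure the spread between these libraries.

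Most of the cholangiocyte genes were higher on the high-fat diet. Of the 8 genes, 6 were called higher on FFD (Krt7, Krt19, Krt23, Epcam, Cftr and Cd24a) and 0 were called lower in edgeR's quasi-likelihood test. A call required an adjusted p no larger than 0.01 together with a log2 fold change beyond 0.5 in either direction. Over all tested genes 13.2% were called higher and 4.99% lower. The median log2 fold change of the 8 genes was 2.51, against -0.03 over all tested genes. Without FFD replicate 9, 5 of the 8 genes were called higher and 0 lower, against 12.1% and 4.21% of all tested genes, and the median over the 8 was 1.61. At an unadjusted p under 0.05, 7 of the 8 genes were higher on FFD and 0 were lower, against 24.1% of all tested genes higher. DESeq2 called 6 of them higher, against 15% of all genes with an adjusted p, and limma-voom 4, against 13%. For each of the 8 genes at least 1 FFD library lay within the control range, whereas 1.48% of all tested genes had every FFD library above every control library. The calls on this whole transcriptome were lopsided on either scaling: 72.6% of called genes were higher on FFD with TMM and 94.4% with library totals. Library totals called 6 of the 8 genes and 21.4% of all tested genes higher, and moved the median of all genes by 0.29 on the log2 scale.

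**Figure D1:**
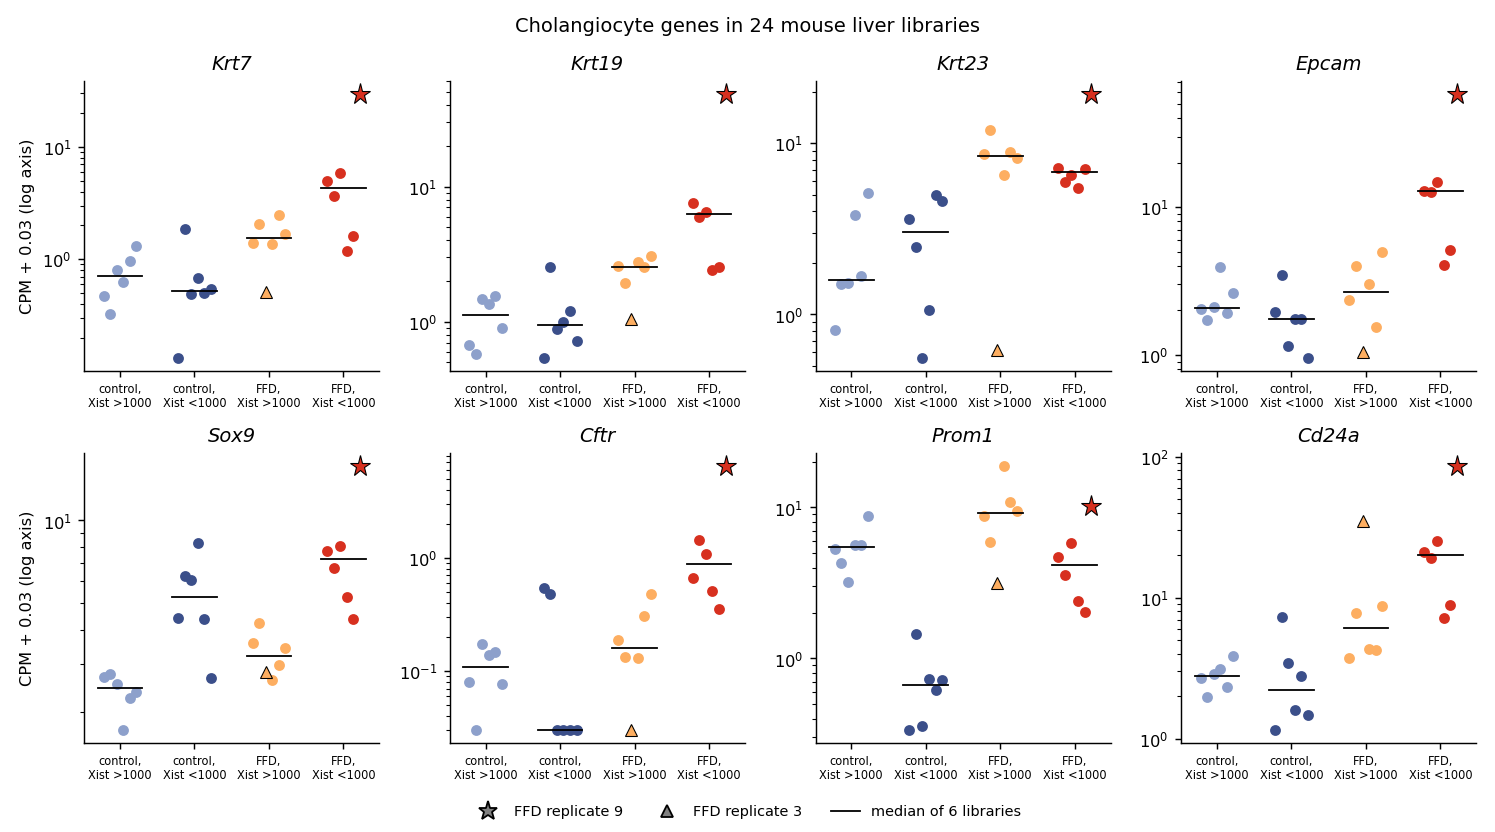
CPM of the 8 genes in every library, on a log axis after adding 0.03 so that libraries with 0 counts can be drawn. Each point is 1 library, columns separate the diets and the Xist division, the line is the median of 6 libraries, the star is FFD replicate 9 and the triangle is FFD replicate 3. FFD replicate 9 is the highest library for 7 of the 8 genes, and FFD replicate 3 is the lowest FFD library for 5 of them.

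The genes lie on 6 chromosomes of the mouse genome (GRCm38, the build called mm10 in the submitters' processing notes, with GENCODE M21 gene models), and all 8 are protein-coding. Krt19 (chr11:100140810-100148665), Krt23 (chr11:99477974-99493137) and Sox9 (chr11:112782224-112787760) share a chromosome, the first 2 of them in the cluster of type I keratin genes. Krt7 lies at chr15:101411043-101430313, among the type II keratins. Epcam spans chr17:87635979-87651129, Cftr chr6:18170687-18322768, Prom1 chr5:43993620-44102032 and Cd24a chr10:43578284-43584265. In these gene models exons of Krt7, Cftr and Prom1 overlap an exon of a predicted gene on the opposite strand (Gm671, Gm15592 and Gm16401), and the sources used here do not say whether the counting used strand. They do not say either how reads shared with near-identical copies were counted.

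RefSeq promoters were at hand for 5 of the 8 genes, 2 of them for Prom1. The 250 bases before the start of the 4 genes that were called higher and had an entry are shown, 5′ to 3′ on the gene's strand (GRCm38.p6), as the start-site context of genes called higher on the diet. Capitals were reserved for matches to binding letters of 4 factor families of biliary and injury-related transcription.
Krt7 (chr15:101412153-101412402, plus strand): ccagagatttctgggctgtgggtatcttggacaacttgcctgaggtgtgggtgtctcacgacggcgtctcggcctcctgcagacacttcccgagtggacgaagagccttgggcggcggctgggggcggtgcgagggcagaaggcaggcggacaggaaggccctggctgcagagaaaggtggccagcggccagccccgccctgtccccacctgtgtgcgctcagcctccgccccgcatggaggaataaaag
Krt23 (chr11:99493121-99493370, minus strand): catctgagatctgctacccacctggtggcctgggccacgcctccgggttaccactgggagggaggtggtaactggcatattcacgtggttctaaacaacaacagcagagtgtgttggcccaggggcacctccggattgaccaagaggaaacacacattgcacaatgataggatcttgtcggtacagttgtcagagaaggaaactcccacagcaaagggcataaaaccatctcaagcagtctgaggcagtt
Epcam (chr17:87635729-87635978, plus strand): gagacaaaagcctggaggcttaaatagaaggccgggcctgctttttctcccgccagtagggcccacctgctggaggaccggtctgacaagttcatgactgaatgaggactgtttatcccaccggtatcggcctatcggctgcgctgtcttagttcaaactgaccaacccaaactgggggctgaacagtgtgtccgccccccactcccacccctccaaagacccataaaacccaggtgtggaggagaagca
Cftr (chr6:18170437-18170686, plus strand): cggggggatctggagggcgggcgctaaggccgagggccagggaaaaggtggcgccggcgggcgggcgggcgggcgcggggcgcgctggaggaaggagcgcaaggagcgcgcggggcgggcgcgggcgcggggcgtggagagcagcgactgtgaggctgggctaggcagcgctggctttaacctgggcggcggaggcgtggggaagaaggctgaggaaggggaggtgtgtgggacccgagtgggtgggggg
The letters searched, on both strands of the 300 bases from 250 before to 50 after the start, were GGAATG for TEAD, GTGGGAA for RBPJ, ATCAAT for ONECUT and AACAAT for SOX factors. None of these letters occurred in the 6 promoters, so no capitals appear. Over all 32851 promoters, 14.7% held the TEAD letters, 6.38% those of RBPJ, 7.54% those of ONECUT and 10.7% those of SOX. The 4 promoters shown differed in base composition, from 76.4% G and C for Cftr to 52.8% for Krt23.

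The keratins form the intermediate filaments of the duct epithelium. Krt19, the keratin most used to mark bile ducts, was counted at 5 to 44 counts per control library (0.509 to 2.49 CPM, median 0.925). On FFD its level was 1.01 CPM at the lowest, 2.64 at the median and 48.1 at the highest. Of the 12 FFD libraries, 9 exceeded the highest control, control replicate 11, and all 12 exceeded the control median. The means were 7.22 ± 13.03 CPM (SD, n = 12) on FFD and 1.09 ± 0.560 on control diet, a log2 fold change of 2.72 (SE 0.54, edgeR adjusted p = 0.000298). It was smaller in DESeq2, 1.64 (adjusted p = 8.68e-07), and in limma-voom, 1.98 (adjusted p = 0.00628), both still calls. The cause of the difference between methods was not tested. Krt7, the type II partner of Krt19 in duct cells, ran from 0.102 to 1.81 CPM on control diet with a median of 0.560. On FFD it ran from 0.480 to 29.4 CPM with a median of 1.84. The groups overlapped more widely than for Krt19, since 6 of 12 FFD libraries exceeded the control maximum, again in control replicate 11. The log2 fold change was 2.71 (SE 0.56, edgeR adjusted p = 0.000462).

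Krt23, a type I keratin that is scarce in healthy liver and is known to appear in injured liver, behaved more evenly across the FFD libraries. On control diet its level was 0.526 to 5.12 CPM with a median of 2.04, and on FFD 0.586 to 19.4 CPM with a median of 7.14. All FFD libraries but 1 lay above every control library. The exception was FFD replicate 3, with 11 counts (0.586 CPM), at the bottom of the control range. Means were 8.02 ± 4.45 CPM (SD, n = 12) and 2.62 ± 1.70, and the log2 fold change was 1.62 (SE 0.37, edgeR adjusted p = 0.00131).

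Epcam, Cd24a and Prom1 encode proteins of the cell surface. Epcam, a homotypic adhesion molecule of simple epithelia that normal adult hepatocytes lack, was at 0.921 to 3.88 CPM on control diet with a median of 1.91. On FFD it was at 1.01 to 58.2 CPM with a median of 4.46. The upper 8 FFD libraries exceeded every control, and FFD replicates 3, 1, 5 and 4 lay within the control range. The means were 10.4 ± 15.8 CPM (SD, n = 12) and 2.08 ± 0.860, and the log2 fold change was 2.31 (SE 0.51, edgeR adjusted p = 0.000932). In limma-voom it was 1.54 (adjusted p = 0.0350), which is no call. Cd24a encodes a small lipid-anchored glycoprotein of ductular cells that neutrophils and developing B cells also carry. It was at 1.12 to 7.31 CPM on control diet with a median of 2.71, and at 3.69 to 85.5 CPM on FFD with a median of 8.78. All 12 FFD libraries exceeded the control median and 8 exceeded the control maximum, control replicate 11. The log2 fold change was 2.74 (SE 0.47, edgeR adjusted p = 6.13e-05), the smallest adjusted p among the 8 genes. Prom1 encodes the membrane glycoprotein CD133, found on progenitor cells and on the apical side of ducts. Its level was 0.305 to 8.77 CPM on control diet with a median of 2.29, and 2.01 to 18.7 CPM on FFD with a median of 5.85. The groups overlapped broadly, with 5 of 12 FFD libraries above the control maximum, and FFD replicate 4 rather than 9 was the highest. Prom1 was not called in the 24 libraries, with a log2 fold change of 1.19 (SE 0.47, edgeR adjusted p = 0.0444).

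Sox9, the transcription factor that specifies duct cells and is also present in some periportal hepatocytes, showed the smallest difference. It was at 1.69 to 8.22 CPM on control diet with a median of 2.69, and at 2.59 to 15.7 CPM on FFD with a median of 4.27. FFD replicate 9 alone exceeded the highest control, control replicate 7. The log2 fold change was 0.55 (SE 0.30, edgeR adjusted p = 0.142), so this fit detected no difference beyond the spread between libraries. With the Xist division as a term in edgeR it was 0.52 (adjusted p = 0.0239), and 0.36 (adjusted p = 0.0703) without FFD replicate 9 as well. With library totals it was 0.93 (edgeR adjusted p = 0.0210). None of these is a call. Cftr, the apical chloride channel that drives ductal secretion, was the scarcest. Control livers held 0 to 8 counts, 5 of them 0, and FFD livers 0 to 152 counts with a median of 7.5. In CPM the FFD median was 0.388 and the control median 0.0476, and 4 of the FFD libraries exceeded the control maximum of 0.509. The log2 fold change of 3.10 (SE 0.80, edgeR adjusted p = 0.00324) had the largest SE of the 8 genes and rests on few counts outside FFD replicate 9. In limma-voom it was 2.37 (adjusted p = 0.0172), again no call.

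FFD replicate 9 supplied a large part of these differences. It held 56.2% of all Cftr CPM of the 12 FFD libraries, 55.5% of Krt19, 52.7% of Krt7, 46.8% of Epcam and 37.1% of Cd24a. Its level was 19.8 times the median of the other FFD libraries for Cftr (152 counts), 19.0 times for Krt19 (1138 counts) and 17.8 times for Krt7 (695 counts). The corresponding ratio was 14.5 for Epcam (1376 counts) and 9.86 for Cd24a (2024 counts). The remaining genes stood out less, with 3.74 times for Sox9, 2.73 times for Krt23 and 1.75 times for Prom1. It was the highest FFD library for 7 of the 8 genes, and for 20.3% of all tested genes.

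Leaving out FFD replicate 9 lowered the log2 fold change of every gene and turned none. Without it Cd24a was at 2.20 (SE 0.37, edgeR adjusted p = 6.66e-05), Krt7 at 1.76 (SE 0.37, adjusted p = 0.000678) and Krt19 at 1.68 (SE 0.30, adjusted p = 0.000144). Krt19 had the clearer separation from zero without this library than with it, since the SE fell more in proportion than the log2 fold change. Epcam was at 1.53 (SE 0.37, adjusted p = 0.00218) and Krt23 at 1.42 (SE 0.36, adjusted p = 0.00302), both still called. Cftr lost its call at 2.04 (SE 0.66, adjusted p = 0.0178), and Sox9 (0.29, adjusted p = 0.412) and Prom1 (1.14, adjusted p = 0.0626) stayed without one. In linear terms the mean level of Krt19 over the remaining FFD libraries was 3.50 ± 2.12 CPM (SD, n = 11), that of Epcam 6.01 ± 4.96 and that of Cd24a 13.2 ± 10.4.

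**Figure D2:**
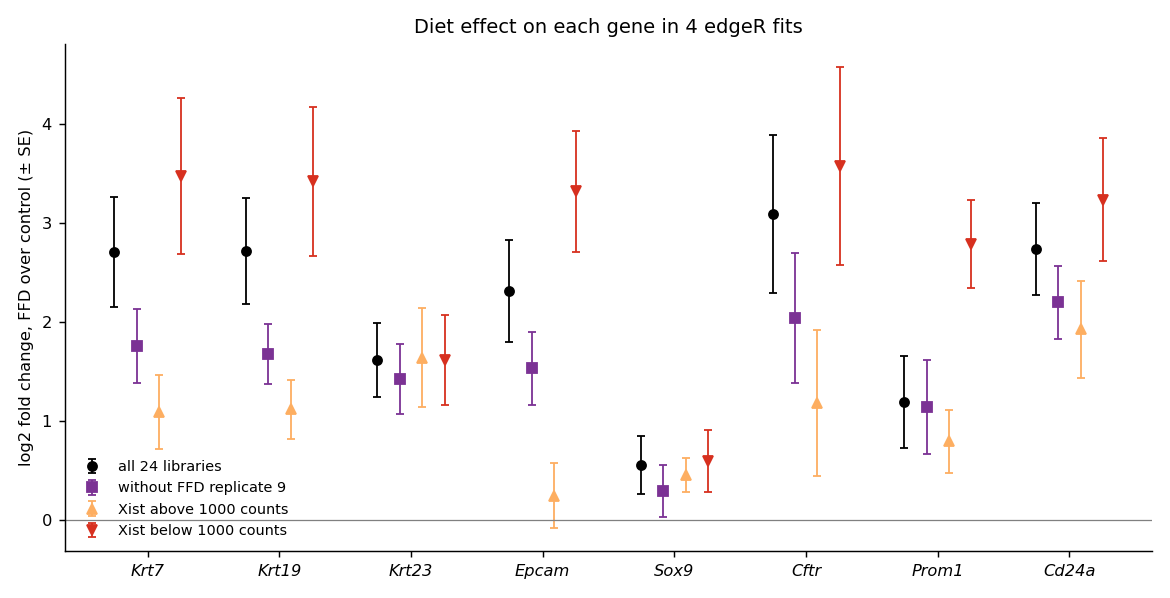
log2 fold change of FFD over control for each gene, with bars of 1 SE, in 4 edgeR fits: all 24 libraries, without FFD replicate 9, and within each side of the Xist division. Without FFD replicate 9 the values run from 0.29 for Sox9 to 2.20 for Cd24a. Epcam is at 0.25 where Xist is above 1000 counts and at 3.32 where it is below.

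The diet effect differed between the sides of the Xist division for Epcam and Prom1. Where Xist was below 1000 counts, Epcam was at 0.921 to 3.45 CPM on control diet and 4.01 to 58.2 CPM on FFD, with no overlap. On the other side, control livers ranged from 1.68 to 3.88 CPM. FFD livers ranged more widely, from 1.01 to 4.91, with libraries below and above every control there. The log2 fold changes were 3.32 (SE 0.61, edgeR adjusted p = 0.000696) and 0.25 (SE 0.33, adjusted p = 0.674). Their difference was 3.06 (SE 0.72, adjusted p = 0.00775 for the interaction), and it was 2.17 (SE 0.53, adjusted p = 0.0115) without FFD replicate 9. An interaction with an adjusted p no larger than 0.05 was found for 2 of the 8 genes and 10.2% of all tested genes, in 6.19% with the larger rise below 1000 counts as in both genes. Without FFD replicate 9 it was found for 1 of the 8 genes and 8.62% of all tested genes.

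For Prom1 the control livers themselves formed 2 levels. Control libraries with Xist above 1000 counts held 3.17 to 8.77 CPM, and those below held 0.305 to 1.42 CPM. On FFD the ranges were 3.14 to 18.7 and 2.01 to 10.1 CPM, and those of the 2 sides overlapped. The log2 fold change of Prom1 was 2.79 (SE 0.44, edgeR adjusted p = 0.000229) where Xist was below 1000 counts and 0.79 (SE 0.32, adjusted p = 0.116) where it was above. The difference of 1.97 (SE 0.58) had an adjusted p of 0.0306 for the interaction, and of 0.0717 without FFD replicate 9. With the Xist division as a term in the fit, Prom1 was called higher in all libraries (1.61, adjusted p = 0.000544). The control ranges of Sox9 overlapped at their ends, 1.69 to 2.72 CPM above 1000 counts of Xist and 2.65 to 8.22 CPM below.

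Within the libraries with Xist below 1000 counts, 5 of the 8 genes were called higher (Krt7, Krt19, Epcam, Prom1 and Cd24a) and 0 lower, against 14.3% and 7.89% of all tested genes. The same 5 genes were called there without FFD replicate 9, against 12.8% of all tested genes. Within those above 1000 counts edgeR called 0 of the 8 genes, against 2.82% of all tested genes, although 6 of the 8 were higher at an unadjusted p under 0.05, against 14.8% of all tested genes. There Cd24a was at 1.93 (adjusted p = 0.0171), Krt23 at 1.64 (adjusted p = 0.0397), Krt19 at 1.12 (adjusted p = 0.0232) and Krt7 at 1.09 (adjusted p = 0.0659). Krt23 had nearly the same log2 fold change in both, 1.62 below and 1.64 above. For Krt7 and Krt19 the difference between the sides was 2.37 (SE 0.92) and 2.28 (SE 0.85), with adjusted p of 0.106 and 0.0890.

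The FFD livers were not uniform within the set of low Xist either. FFD replicates 9, 10, 11 and 12 were the 4 highest FFD libraries for 5 of the 8 genes (Krt7, Krt19, Epcam, Sox9 and Cftr). The share of all tested genes with this order was not counted. In replicates 10, 11 and 12 Krt19 was at 7.57, 5.90 and 6.46 CPM and Epcam at 12.9, 12.7 and 14.7 CPM. Replicates 7 and 8 lay well below them, with Krt19 at 2.37 and 2.49 CPM and Epcam at 4.01 and 5.09 CPM. Their Krt19 level was close to that of replicates 1, 2, 4, 5 and 6, at 1.92 to 3.01 CPM. Col1a1 in replicates 7 and 8 lay between the other FFD libraries. Its log2 over the control median, taken of CPM + 0.1, was 4.19 and 3.69 there. It was 4.41 to 4.65 in replicates 9 to 12 and 2.02 to 3.39 in replicates 1 to 6.

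FFD replicate 3 showed the opposite of replicate 9 for most of the genes. It was the lowest FFD library for Krt7, Krt19, Krt23, Epcam and Cftr, with 0 counts of Cftr and 11 of Krt23. For how many of all tested genes it was lowest was not counted. Cd24a in FFD replicate 3, in contrast, was at 35.1 CPM (658 counts), second only to replicate 9. This library also held 1242 counts of S100a8, a neutrophil granule protein, and a summed neutrophil marker level of 178 CPM, against 1.19 to 3.52 CPM in the other FFD libraries and 0.288 to 2.03 CPM in controls. Its proliferation markers were likewise the highest at 60.7 CPM, against 8.87 to 34.2 in the other FFD libraries. The part of these cells in its Cd24a level was not tested. Without FFD replicates 3 and 9, the log2 fold change of Cd24a was 1.94 (edgeR adjusted p = 0.000119), and 6 of the 8 genes were called higher, Cftr among them (2.18, adjusted p = 0.00772), against 12.3% of all tested genes.

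**Figure D3:**
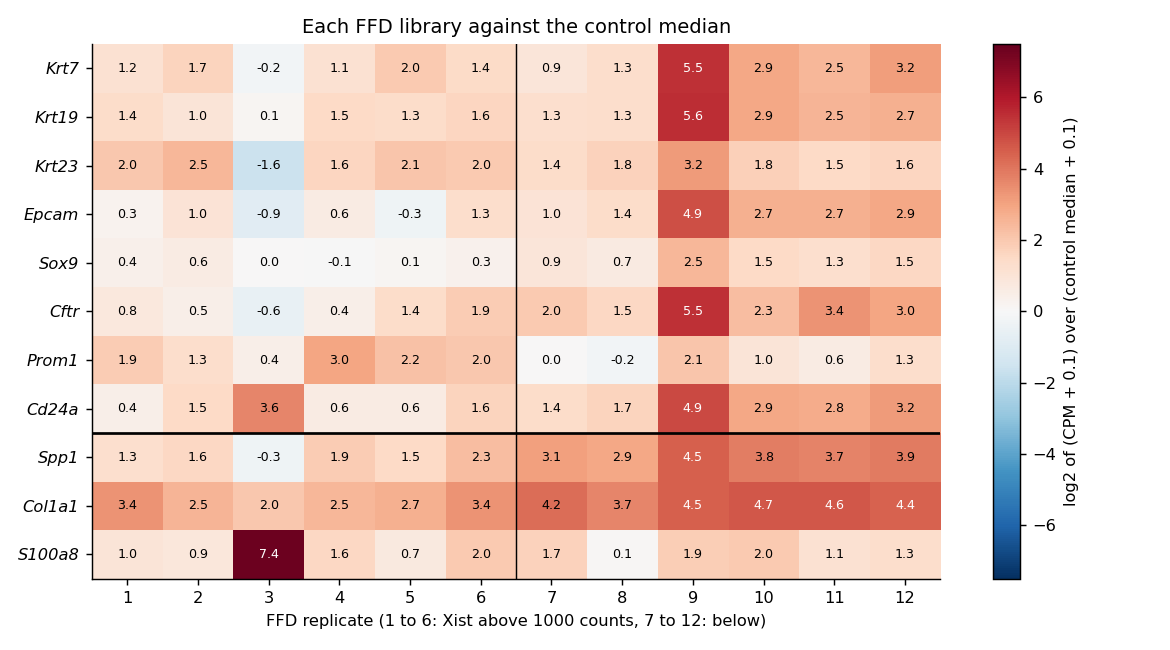
Level of the 8 genes (above the line) and of Spp1, Col1a1 and S100a8 in each FFD library, as log2 of CPM + 0.1 over the control median + 0.1. Red is above and blue below the control median. Replicate 9 is deep red for Krt7 (5.48), Krt19 (5.56) and Cftr (5.47), replicates 10 to 12 are intermediate, and replicate 3 is blue for Krt23 (-1.64) and red for Cd24a (3.64) and S100a8 (7.37).

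How far the genes varied together from liver to liver was measured by the correlation of log2(CPM + 1) within a diet, after the mean of each side of the Xist division had been subtracted. The family held 144 coefficients, Pearson and Spearman for the 28 pairs of the genes and for each gene with Col1a1 in both diets. On FFD, 12 of the 28 pairs passed an adjusted p of 0.05 with a positive Pearson r, and 5 pairs with a positive Spearman rho. The highest r was that of Krt7 and Krt19, 0.967 over 12 libraries (permutation p = 0.00141, adjusted 0.0301). Their Spearman rho was 0.699 (permutation p = 0.0143, adjusted 0.0605). Dropping FFD replicates 9 and 7, which lay farthest from the Krt7 median, left an r of 0.851. Krt19 and Prom1 had r = 0.777 (permutation p = 0.000200, adjusted 0.0245), or 0.779 after dropping the same libraries. Their rho was 0.839 (permutation p = 0.000340, adjusted 0.0245). Krt19 and Cd24a had r = 0.557 (permutation p = 0.102, adjusted 0.201), which became -0.143 after dropping FFD replicates 9 and 7. Their rho was 0.343 (permutation p = 0.288, adjusted 0.415). Without FFD replicate 9 none of the 28 pairs reached an adjusted p of 0.05, although Krt7 and Krt19 kept an r of 0.887. On control diet 0 of 28 pairs passed by Pearson r and 1 by rho, again Krt7 and Krt19. Their control values were rho = 0.804 (permutation p = 0.00538, adjusted 0.0452) and r = 0.807 (permutation p = 0.00974, adjusted 0.0537), or 0.837 once the 2 outermost libraries were dropped.

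With Col1a1, the main fibrillar collagen gene, none of the 8 genes reached an adjusted p of 0.05 on FFD. Krt19 had the highest rho there, 0.545 (permutation p = 0.0496, adjusted 0.124). Its r of 0.427 (permutation p = 0.110, adjusted 0.214) became 0.744 once FFD replicates 9 and 7 were dropped. On control diet Cd24a and Col1a1 had r = 0.899 (permutation p = 0.00135, adjusted 0.0301), or 0.710 with control replicates 11 and 10 dropped. Their rho was 0.867 (permutation p = 0.00319, adjusted 0.0312). Krt7 and Col1a1 had r = 0.880 (permutation p = 0.00151, adjusted 0.0301), but 0.540 with control replicates 11 and 6 dropped. Their rho was 0.657 (permutation p = 0.0233, adjusted 0.0728). Control replicate 11 was the highest control library for Krt7, Krt19, Cd24a and Col1a1.

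Compared per kilobase of exon, the genes kept a similar order on both diets. On control diet the median fell from 1.30 CPM per kb for Krt23 over 1.05 for Cd24a, 0.868 for Epcam, 0.650 for Sox9, 0.499 for Krt19, 0.320 for Prom1 and 0.0794 for Krt7 to 0.00614 for Cftr. On FFD it fell from 4.56 for Krt23 over 3.40 for Cd24a, 2.03 for Epcam, 1.42 for Krt19, 1.03 for Sox9, 0.816 for Prom1 and 0.261 for Krt7 to 0.050 for Cftr. Krt19 and Sox9 thus changed places, and on FFD Krt19 was above Sox9 in 11 of 12 libraries. The ranges of all neighbours in either order overlapped. Cd24a was nonetheless above Epcam in all 12 FFD libraries, and Krt7 above Cftr in 12 of 12 on FFD and 11 of 12 on control diet. The exon lengths are unions over all annotated transcripts, which makes long-annotated genes such as Krt7 (7049 bases) look lower beside Krt19 (1855 bases).

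**Figure D4:**
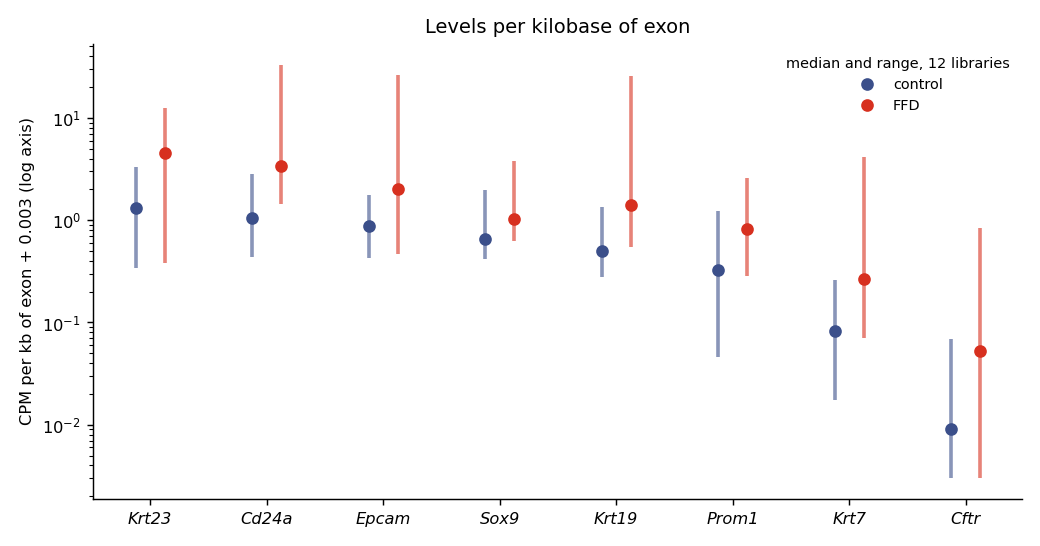
Median (point) and range (line) over 12 libraries of CPM per kilobase of exon, on a log axis after adding 0.003, in the order of the control medians. Krt23 has the highest median on both diets (1.30 and 4.56) and Cftr the lowest (0.00614 and 0.050), and the range of each gene on FFD overlaps its range on control diet.

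Other genes of the duct epithelium were called higher as well. Among 13 genes of epithelial structure, 12 were tested, 10 were called higher and 0 lower, with a median log2 fold change of 2.29 (1.56 without FFD replicate 9, still 10 called). Cldn4, a tight junction claudin, was at 4.24 (SE 0.80, edgeR adjusted p = 0.000172), Tspan8, a tetraspanin, at 3.01, and the membrane protease St14 at 2.64. Esrp1, a splicing regulator of epithelial cells, was at 2.54. Krt8 and Krt18, the keratin pair that hepatocytes also make, were the most abundant members and were called higher too. Krt8 was at 1.45 (SE 0.17, edgeR adjusted p = 1.32e-06), with every FFD library above every control library, and Krt18 at 1.02 (SE 0.16, adjusted p = 2.77e-05). Cldn3 (-0.06) and Cdh1 (0.46), which hepatocytes also express, gave no call. Among 7 transcription factors of duct cells, 4 were called higher and 2 lower. The epithelial factors Ehf (2.54), Elf3 (2.47), Sox4 (2.14) and Grhl2 (1.87) rose, and Onecut1 (-1.41) and Onecut2 (-0.55), which hepatocytes also express, fell. Without FFD replicate 9 the 4 that rose were at 1.87, 2.08, 1.84 and 1.35, all still called. Where Xist was above 1000 counts, Ehf was at 0.74 (edgeR adjusted p = 0.237) and Grhl2 at 0.44 (adjusted p = 0.498). Below 1000 counts they were at 3.42 and 3.35, with adjusted p of 0.0231 and 0.0198 for the interaction. For Elf3 and Sox4 that adjusted p was 0.235 and 0.0852, and 10.2% of all tested genes had 0.05 or less. Onecut1 lost its call without FFD replicate 9 (-1.31, edgeR adjusted p = 0.0134) and in 14 of the 24 fits that left out 1 library. With library totals in place of TMM, neither of the Onecut genes was called.

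Of 5 genes of the primary cilium, the sensory organelle of cholangiocytes, 3 were called higher, Bicc1 (1.96), Dcdc2a (1.60) and Pkhd1 (0.95), and the polycystin genes Pkd1 (-0.10) and Pkd2 (0.22) were not. All 3 genes of secreted or surface-shed duct products were called, Mmp7 at 3.47, Spp1, the matrix protein osteopontin, at 2.62 and Vtcn1 at 2.09. Spp1 was at 278 and 244 CPM in FFD replicates 7 and 8, above the 26.3 to 163 CPM of replicates 1 to 6. Krt19 in replicates 7 and 8, at 2.37 and 2.49 CPM, lay within the 1.01 to 3.01 CPM of replicates 1 to 6. The part of other cell types in the Spp1 level was not tested. Genes of bile modification gave 1 call in each direction. Of 8, Sctr, the secretin receptor, rose (2.35, edgeR adjusted p = 0.00508, and 1.73, adjusted p = 0.0203, without FFD replicate 9), and the chloride cotransporter gene Slc12a2 fell by 0.62 on the log2 scale. The water channel gene Aqp1 (-0.16) and the anion exchanger gene Slc4a2 (-0.05) were not called, and both are also expressed outside the ducts. Slc10a2, the bile acid transporter on the apical side of cholangiocytes, was not called over all libraries (0.11), but was called in opposite directions across the Xist division. It was at 1.65 (edgeR adjusted p = 0.00541) above 1000 counts and at -0.79 (adjusted p = 0.00426) below. The difference was -2.45 (SE 0.42, adjusted p = 0.000613 for the interaction), and -2.36 (adjusted p = 0.000909) without FFD replicate 9.

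Signals known to act on ductular cells were tested in 16 genes, of which 5 were called higher and 0 lower. The cytokine gene Tnfsf12, which encodes TWEAK, was at 0.56 and its receptor gene Tnfrsf12a at 0.86. Ltb, a lymphotoxin, was at 1.67 and the Notch target Hey1 at 1.60. The Notch ligand gene Jag1 was at 0.66 (edgeR adjusted p = 0.00935) and lost its call without FFD replicate 9 (0.52, adjusted p = 0.0235). Neither the lymphotoxin receptor gene Ltbr (0.02) nor Yap1 (-0.16) was called. With library totals 8 of the 16 genes were called higher.

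**Figure D5:**
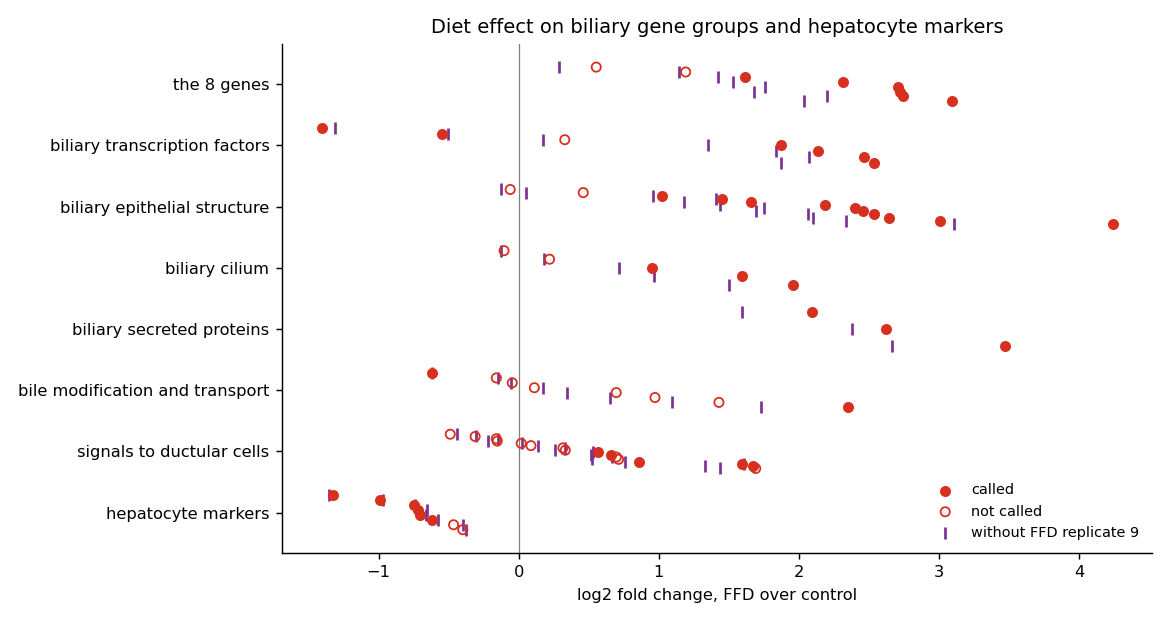
log2 fold change of FFD over control for each tested gene of 7 biliary gene groups, the 8 genes at the top, and of 8 hepatocyte markers. Filled red points were called, open ones were not, and the purple marks give the same gene without FFD replicate 9. Most red points of the epithelial structure group lie between 1.02 and 4.24, and the hepatocyte markers lie between -1.33 and -0.40.

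Markers of other cell types moved with the diet as well. Of 8 hepatocyte markers 6 were called lower and 0 higher (median log2 fold change -0.71), among them Tat (-1.33) and Cps1 (-0.99), and 2 were called lower with library totals. Their summed level was 36758 to 92201 CPM on FFD and 82289.7 to 132286 CPM on control diet, and FFD replicate 9 was the lowest library. Of 9 stellate cell and fibroblast markers 6 were called higher, with sums of 396 to 981 CPM on FFD and 161 to 477 on control diet, and of 6 macrophage markers 5, with sums of 277 to 947 and 98.9 to 451 CPM. Here FFD replicate 9 was the lowest FFD library for macrophages. All 5 proliferation genes were called higher, Mki67 at 2.36 and Ccnb1 at 2.43. Of 4 sinusoidal endothelial markers 1 was called higher (Stab2, 0.57) and 0 without FFD replicate 3, with sums of 112 to 268 and 110 to 223 CPM. Of 5 neutrophil markers 4 were tested and called higher, with Camp at 5.72 and S100a8 at 4.28, and limma-voom called 0. These values rest on FFD replicate 3. Without it 2 of the 4 were called, S100a8 at 1.55 (edgeR adjusted p = 0.00294) and S100a9 (adjusted p = 0.00477), and Camp was not (adjusted p = 0.243). Over all libraries no call was made among 4 B cell markers, with sums of 2.43 to 10.4 and 2.07 to 9.67 CPM. There edgeR gave 0 of them at an unadjusted p under 0.05. Where Xist was below 1000 counts, 1 of the 4 was called higher, against 14.3% of all tested genes. Their sums there were 4.92 to 10.4 CPM on FFD and 2.07 to 4.25 on control diet (median log2 fold change 1.08). Above 1000 counts 0 were called (median -0.32). The part of these cells in the levels of the 8 genes was not tested.

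Tissue from outside the liver was looked for with markers of neighbouring epithelia. Of the gallbladder markers, Muc5b and Gkn3 had 0 counts in FFD replicate 9 and Cldn18 had 5. The summed level of the 4 gallbladder markers was 1.95 to 4.73 CPM on FFD and 1.67 to 3.24 CPM on control diet. FFD replicate 9 had the highest sum, next to a maximum of 4.48 CPM in the other FFD libraries, and the part of such cells in its levels was not tested. Sox17, which endothelial cells also express, was tested and not called (0.40, adjusted p = 0.0486). The intestinal markers Alpi, Cdx1 and Cdx2 were at 0 in every library, as were the pancreatic acinar markers Cpa1 and Ptf1a. Over all libraries none of the tested intestinal (3 of 6) or acinar (2 of 8) markers was called by edgeR, DESeq2 or limma-voom. In edgeR 2 and 2 of them were lower at an unadjusted p under 0.05. Without FFD replicate 3, 1 of each was called lower, as were 995 of all tested genes. The same held where Xist was below 1000 counts, against 7.89% of all tested genes. Intestinal sums were 72.7 to 174 CPM on FFD and 89.5 to 263 on control diet. Acinar sums were 2.56 to 10.2 and 3.08 to 66.5 CPM, and control replicate 10 held both maxima. The most abundant tested markers were Fabp2 (104 ± 25.7 CPM on FFD and 97.0 ± 49.0 on control diet, SD, n = 12) and Lgals4 (-0.44). Of 8 mesothelial markers, which cover the liver surface, 2 were called higher (Wt1 at 1.48 and Gpm6a at 1.14), with sums of 3.98 to 13.3 CPM on FFD and 1.92 to 8.32 on control diet. FFD replicate 9, at 7.86 CPM, was not the highest library for any mesothelial gene.

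Across the 24 libraries, the 3 genes most like each of the 8 were ranked by Pearson r of log2(CPM + 1). The mean of each diet had been subtracted, but not that of each side of the Xist division. The values describe shared variation that FFD replicate 9 weighs on, and differences between the sides of the division enter them too. Epcam was closest to Ehf (r = 0.974), ccdc198 (0.969) and Vsig10 (0.953). Krt7 was closest to the protease inhibitor gene Spint1 (0.966), Degs2 (0.963) and Scube3 (0.950). Krt19 and Cftr shared Cldn6 (0.952 and 0.935) and Wnt7b (0.950 and 0.933), with Ankrd1 (0.951) as the remaining gene for Krt19 and Ctxn1 (0.934) for Cftr. For Cd24a they were Stc2 (0.915), Mapk13 (0.906) and Ccdc88c (0.888). Sox9 was closest to Fgfr1 (0.919), Cib3 (0.911) and Arl2bp (0.903), Prom1 to Pygo1 (0.914), Mllt3 (0.879) and Fam19a2 (0.876), and Krt23 to Fgf2 (0.763), Blnk (0.734) and Gsta2 (0.725). Without FFD replicate 9, over 23 libraries, Epcam and Ehf still had r = 0.952, Krt7 and Spint1 0.934 and Prom1 and Pygo1 0.916, while Cftr and Cldn6 were at 0.747.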

How the data were processed

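Poly(A)-selected RNA of 24 whole mouse livers was sequenced, 12 on FFD and 12 on control diet. Raw counts of whole numbers, 1 row per Ensembl gene, were deposited by the authors in a single table. The submitters' processing notes name bcl2fastq, STAR 2.7.3a and mm10, and the study's supplement names the exon quantification pipeline and PISCES for reads aligned to the human genome. The counting program and annotation for the mouse reads are not given in the sources used here. Symbols, positions and exon lengths came from GENCODE M21, in which 51745 gene IDs were found and 4460 were not (0.0723% of counts). The 8 genes, the gene lists and the tests were chosen with earlier results of these data known.

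A gene entered the test when 12 or more libraries had 1 count or more, with edgeR 4.0.16 in R 4.3.3 (TMM, quasi-likelihood, diet as the only term, Benjamini-Hochberg over 17913 genes). The study's thresholds were used for calls, adjusted p up to 0.01 and log2 fold change past 0.5 in size. The study's term for sex could not be fitted, since labels give none. The SE is the absolute log2 fold change over the square root of F. Within-division fits asked for 1 count in 6 libraries. The fit was checked on simulated counts. Correlations used 100000 two-sided permutations within the Xist division. Named genes were the 8, all called genes of each list up to 4 (otherwise the 4 largest changes among genes averaging 10 counts or more) and up to 2 abundant uncalled ones. The marker lists of other cell types are given mainly by counts and ranges. Outside the rule, Onecut1, Onecut2, Tnfsf12, Krt8, Krt18, Slc10a2, S100a9 and the markers at or near 0 were named after their values were seen. A few genes of the lists, and letters searched in promoters, are not reported here.

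Alternatives were DESeq2 1.42.0, limma-voom (limma 3.58.1), other scalings and filters, a replicate block, the Xist division, each library left out, and a pseudocount of 0.1. The fits without FFD replicates 3 and 9 together, those combining the Xist division with leaving out replicate 9, and the correlations with Col1a1 were added after seeing the data. Replicate numbers were not taken as pairs, since no label ties them to an animal or litter and the deviations of same-numbered libraries correlated from -0.09 to 0.54, not all over 0.1. All pairs of libraries of a diet differed beyond sampling noise (chi-square over degrees of freedom 9.48 or more). Counting intervals and floors cover counting error only.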

Additional observations from a re-analysis of the deposited data

Results flagged for a closer look

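The diet effect on Epcam differed between libraries with Xist below and above 1000 counts by 3.06 on the log2 scale (edgeR interaction, adjusted p = 0.00775), with a larger rise below. An interaction with an adjusted p no larger than 0.05 was found for 10.2% of all tested genes. The same difference was 1.97 for Prom1 (adjusted p = 0.0306), whose control libraries were at 0.305 to 1.42 CPM below and 3.17 to 8.77 CPM above, and it was 1.57 (adjusted p = 0.0717) without FFD replicate 9. For Slc10a2, a bile acid transporter gene, the difference was -2.45 (adjusted p = 0.000613), with a fall below and a rise above.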

How the results depend on the processing

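Of 306 log2 fold changes of the 8 genes under another fit or, for 8 of them, another threshold alone, 284 kept the direction and the side of the threshold, 16 lost a call, 6 gained one and 0 reversed. Leaving out each library in turn gave 1.76 to 2.93 for Krt7, 1.68 to 2.90 for Krt19, 1.42 to 1.76 for Krt23, 1.53 to 2.43 for Epcam, 0.29 to 0.71 for Sox9, 2.04 to 3.58 for Cftr, 0.96 to 1.46 for Prom1 and 2.20 to 2.96 for Cd24a, with 5 or 6 genes called. The low end came from leaving out FFD replicate 9, except for Prom1, where it came from FFD replicate 4, and the call of Cftr was the one lost. With at least 10 counts required in every library, 2 genes were called, since 3 were tested. Where Xist was above 1000 counts, 0 were called, at 1.09 for Krt7, 1.12 for Krt19, 1.64 for Krt23, 0.25 for Epcam, 1.18 for Cftr and 1.93 for Cd24a, with fewer libraries fitted. Where it was below, Krt23 (1.62) and Cftr (3.58) lost their calls and Prom1 gained one (2.79), and without FFD replicate 9 as well these were 1.19, 2.43 and 2.42. With the Xist division as a term Prom1 was called at 1.61, and without FFD replicate 9 at 1.42, where Cftr was at 1.89. Prom1 was also called when the adjusted p could reach 0.05 (1.19). limma-voom gave 1.54 for Epcam (adjusted p = 0.0350) and 2.37 for Cftr (adjusted p = 0.0172), neither called, and the cause was not tested.

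No label ties the replicate numbers to an animal or litter, and 2 of 12 FFD libraries correlated best with the control of their own number. With the replicate block, 5 genes were called, without Epcam (1.40) and Cftr (2.37) and with Prom1 (1.48). The block left 1 call in the bile modification list, 1 in the neutrophil list and 0 in the sinusoidal endothelial list.

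Over all genes, library totals gave 3827 higher and 226 lower, the filter of 10 counts 1230 higher, the libraries with Xist above 1000 counts 509 higher and 177 lower, and those below 1430 lower. With library totals, 8 signal genes, 2 hepatocyte, 1 gallbladder and 2 sinusoidal endothelial markers were called, and without FFD replicate 9, 1 gene of bile modification. Without FFD replicate 9, 0 pairs of the genes were correlated on FFD, and with a pseudocount of 0.1, 1 pair on control diet. Cftr had a median of 1 count in control libraries, which limits the precision of its fold change.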
